A study of Sus scrofa with 8 samples.

Results

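The genes described here encode keratins, the proteins of desmosomes, the precursors and scaffold of the cornified envelope, and transglutaminases. They were chosen by the gene symbols of the count table: every symbol made of KRT, DSG, DSC, PKP or TGM and a number, every symbol that starts with SPRR, and DSP, JUP, PPL, EVPL, IVL, KRTDAP and SBSN. The rule found 59 genes (58 symbols) among the 30282 pig genes of the count table. No SPRR symbol was found, and KRT13, KRT14, KRT16, KRT17, KRT19, KRT6A and DSC3 were not analysed here. TGM3 and KRT222 are named by a separate gene name table and not by the count table, so they are not among the 59. They were measured by bulk poly(A) RNA sequencing of porcine pancreatic ductal organoids (PPDO), which are cultures grown inside a basement membrane matrix from duct pieces picked out of the pancreas of wild-type or INS-eGFP pigs of German landrace background. The INS-eGFP transgene drives a green fluorescent protein in beta cells. There were 8 libraries. Line Em came from embryonic pancreas, lines EPN1 and EPN2 from early postnatal pancreas and line LPN from late postnatal pancreas, and each of the 4 lines was cultured for a week in complete medium and in differentiation medium. Both media held the N2 and B27 supplements, a TGF-beta receptor inhibitor (A83-01), a ROCK inhibitor (Y-27632), nicotinamide and N-acetylcysteine. Complete medium also held WNT3a, R-spondin and noggin, or a conditioned medium in their place, and FGF10, EGF, gastrin and prostaglandin E2, none of which was in the differentiation medium. A line is a single culture, and Em and LPN are the sole lines of their stage, so that stage, donor and time in culture cannot be told apart. Which of the lines carried the transgene was not given in the sources used here.

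Keratins are intermediate filament proteins that assemble from a type I and a type II partner. Simple, single-layered epithelia such as the pancreatic duct use KRT8 and KRT18 with KRT7, while the basal layer of stratified epithelia such as epidermis uses KRT5 with KRT14, and the layers above it replace that pair by others, such as KRT1 with KRT10 in epidermis or KRT4 with KRT13 in oesophagus. Desmosomes anchor these filaments at cell contacts: desmogleins and desmocollins span the membrane, plakoglobin (JUP) and plakophilins bind their tails, and desmoplakin (DSP) ties the plaque to keratin. In the outer layers, transglutaminases cross-link involucrin (IVL), envoplakin (EVPL), periplakin (PPL) and other proteins into the cornified envelope. In the RefSeq annotation of Sscrofa11.1, 53 of the 58 symbols had a position. There, 16 keratin genes lie on chromosome 12 between 21124605 and 21737515, among them KRT10, KRT15, KRT20 and KRT23, and 15 lie on chromosome 5 between 17482454 and 18221432, among them KRT1, KRT4, KRT5, KRT7, KRT8 and KRT18. The 6 desmosomal cadherin genes lie together on chromosome 6 between 114982259 and 115453763, and KRTDAP and SBSN lie elsewhere on that chromosome between 44932195 and 44966592.

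The libraries held 40553593 to 47910657 counts, and members took 0.943% to 2.92% of them. Levels are given as CPM, the counts of a gene scaled to the library total and corrected for differences in library composition but not for gene length, so a level can be compared between libraries and not between genes. Where a gene had no count, its level could still be that of 3 counts (0.0619 to 0.0731 CPM), a limit that covers counting error only. Of the 59 genes, 33 passed the expression filter and were tested, and 14 never exceeded 3 counts in a library. Reads of near-identical keratins can be split between genes in the estimated counts, which makes the levels of closely related keratins uncertain. In bulk RNA, fewer cells of a type and less RNA per cell cannot be told apart.

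The summed level of simple keratins was similar in the lines in complete medium, and that of stratified keratins ran over more than an order of magnitude between lines in both media. The 6 simple keratins (KRT7, KRT8, KRT18, KRT20, KRT23 and KRT80) summed in complete medium to 6439 CPM in Em, 5199 CPM in EPN1, 5853 CPM in LPN and 5231 CPM in EPN2, and in differentiation medium to 9377, 6717, 3418 and 1872 CPM in the same order. The lines lay close together in complete medium and spread apart in differentiation medium, where the sum was 1.46-fold and 1.29-fold as high as in complete medium in Em and EPN1 and 0.584-fold and 0.358-fold as high in LPN and EPN2. For KRT7, KRT8 and KRT18 alone these values were 1.44-fold, 1.29-fold, 0.522-fold and 0.217-fold. KRT23 and KRT80, at 530.0 and 350.1 CPM, made up much of the sum in EPN2 in differentiation medium. The 12 stratified keratins, KRT5 and KRT15 of the basal layer and 10 suprabasal and mucosal ones, summed in complete medium to 159 CPM in Em, 462 CPM in EPN1, 5724 CPM in LPN and 8987 CPM in EPN2. In differentiation medium they summed to 295, 3141, 8320 and 13420.5 CPM, which is higher in each of the 4 lines, by 1.86-fold, 6.79-fold, 1.45-fold and 1.49-fold. As a share of the counts of both classes, stratified keratins made up 2.41% in Em, 8.17% in EPN1, 49.4% in LPN and 63.2% in EPN2 in complete medium, and 3.05%, 31.9%, 70.9% and 87.8% in differentiation medium. The order of the lines was the same in both media. This share adds genes of different length, and it was not tested, because it is a sum over chosen genes.

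**Figure D1:**
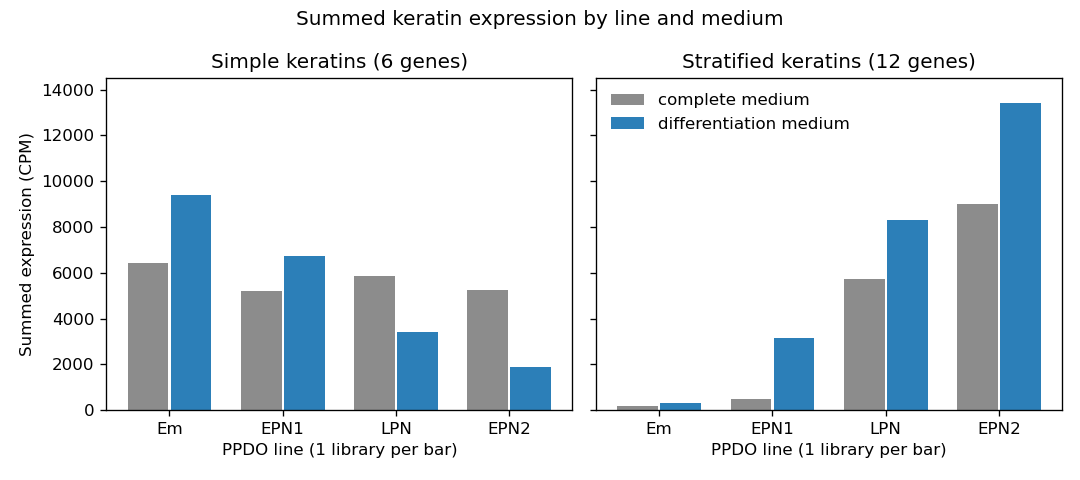
Summed expression of simple keratins (left) and stratified keratins (right) in CPM on a linear axis, with 1 bar for each library, by line and medium. Simple keratins lay between 5199 and 6439 CPM in the 4 lines in complete medium, while stratified keratins ran from 159 CPM in Em to 8987 CPM in EPN2.

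The first comparison asked whether members differed between differentiation and complete medium. With the medium as the only term, edgeR's quasi-likelihood test called 0 of the 33 members tested at an adjusted p-value under 0.05, where 6.97% of the 14475 genes tested were called. Since both media were used on each line, the same test was also fitted with the line as a replicate block. It then called 10 members, all higher in differentiation medium, against 9.48% of all genes called higher and 19.9% called in either direction. These were KRT80, KRT1 and KRT10 among the keratins, DSG1, DSG3 and DSC1 among the cadherins, JUP and PKP1 in the plaque, and EVPL and KRTDAP of the cornified envelope. DESeq2 without a line term called 6 members, all higher (KRT80, KRT20, DSC1, JUP, EVPL and TGM5), where it called 9.96% of all genes higher. DESeq2 with the line block called 17 members, where it called 37.3% of all genes in either direction and 19.3% higher. Of these 16 were higher, the 10 called by edgeR with KRT15, KRT20, DSC2, DSP, PPL and TGM5, and IVL was lower. On simulated counts DESeq2 exceeded its nominal rate of false calls, so calls made by DESeq2 alone are taken as less certain. Those counts had the same scatter in every gene and no response to medium that differed between lines. They cannot rank the 2 methods for these data. Without both libraries of EPN1 or of LPN, the blocked fit called 0 members and 8 or 22 genes in all. Without Em it called 7 members, all higher, and 1730 of 14508 genes, 839 of them higher. Without EPN2 it called 11 members, all higher, and 2989 of 14619 genes, 1451 of them higher. For DSG3, KRT10, PKP1 and KRT80 the fold changes stayed near their full values in the fits that lost the calls. Without EPN1 and without LPN the log2 fold change was 2.31 and 2.48 for DSG3 (2.46 with all lines), 2.19 and 1.89 for KRT10 (1.97) and 2.30 and 2.32 for PKP1 (2.13), with adjusted p-values of 0.0586 to 0.0687. For KRT80 it was 1.42 and 1.55 (1.44), with adjusted p-values of 0.0687 and 0.0539. Others of the 10 called were less steady. Over the blocked fits without a line, the log2 fold change ran from 2.59 to 4.06 for KRT1 and from 1.17 to 1.77 for EVPL. The highest adjusted p-value there was 0.164 for KRTDAP, 0.14 for KRT1 and JUP, 0.133 for EVPL, 0.132 for DSG1 and 0.112 for DSC1.

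Differences between media within a line leaned upward. Of the 33 members, 16 were higher in differentiation medium in 4 of 4 lines, where 23.9% of all genes tested were, and 1 (DSG2) was lower in all 4. The libraries of the 2 media did not overlap for KRT80, JUP and EVPL, which were higher in every differentiation library than in any complete one, as were 8.82% of all genes. The median log2 fold change of the members tested was 0.67 without and 0.89 with the line block, against 0.01 and -0.01 over all genes, and 27 and 25 of them were above 0, against 50.7% and 49.3% of all genes. Since members that passed the expression filter through one medium alone had to differ, these medians describe the members that passed and not the 59.

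The second comparison asked whether members differed between lines, by an F-test of the line beside the medium. The 2 libraries of a line are the same culture in 2 media and not replicates. The spread between cultures of a line was thus not measured. The test sets the lines against what line and medium together leave over. It called 8 of 33 members, KRT1, KRT10, KRT78, DSG1, DSG3, PKP1, IVL and KRTDAP, where 5.14% of all genes were called. DESeq2's likelihood ratio test of the line called 21 members, these 8 among them, where it called 31.5% of all genes. When both libraries of a line were left out, 3 members were called without Em, 5 without EPN1, 6 without LPN and 5 without EPN2. Of all genes tested, these fits called 104 of 14508, 182 of 14538, 223 of 14470 and 379 of 14619 in the same order. The call of KRT10 was made in 4 of these 4 fits, those of KRT78, DSG1, DSG3 and PKP1 in 3, that of KRT1 in 2, that of KRTDAP in 1 and that of IVL in 0. An order of lines chosen after the values were seen, with Em lowest and EPN2 highest in both media, held for 15 of the 33 members, where 5.33% of all genes had it. The opposite order, with EPN2 lowest and Em highest, held for KRT8 and DSG2, where 4.4% of all genes had it.

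**Figure D2:**
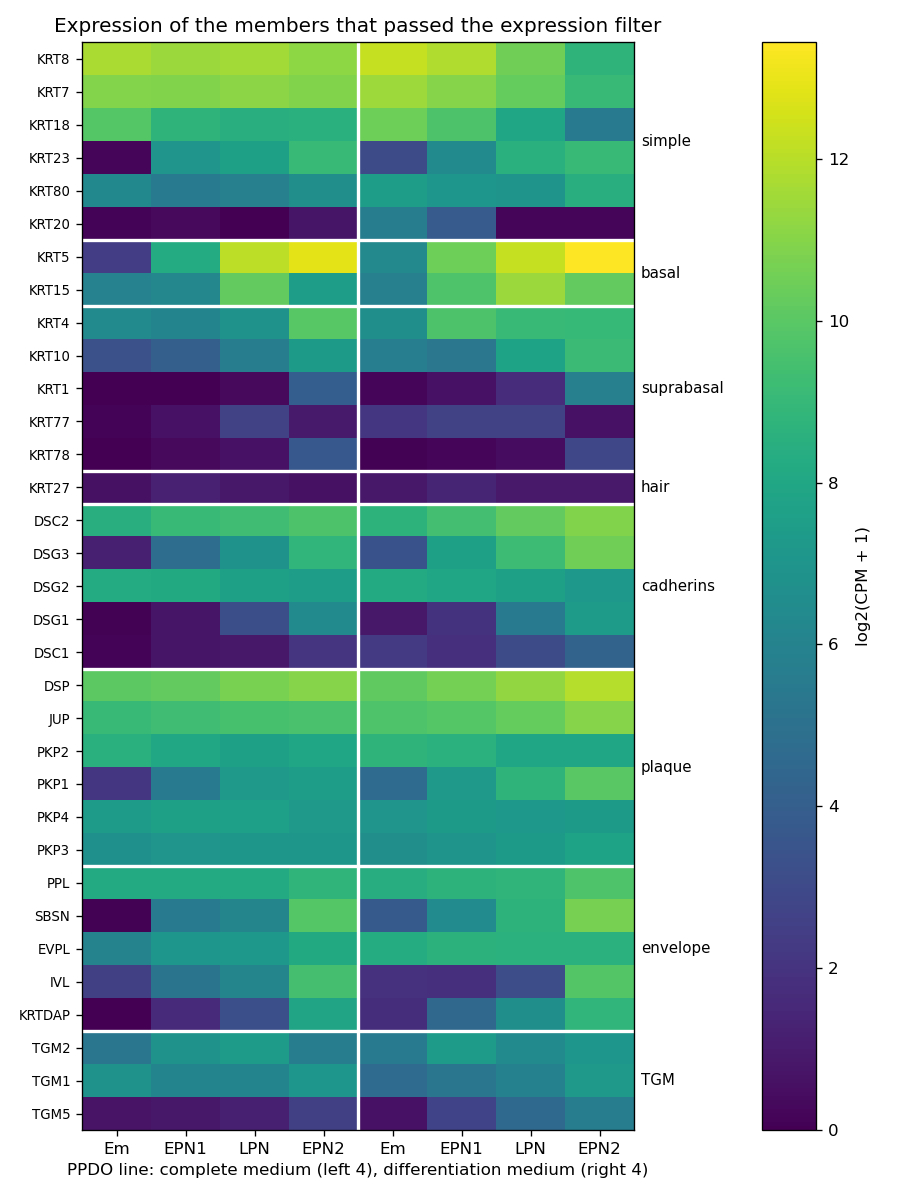
Expression of the 33 members tested as log2(CPM + 1), with a row for each gene, grouped by class, and a column for each library, complete medium on the left and differentiation medium on the right. Within each medium the rows of KRT5, DSG3, SBSN and KRTDAP brighten from Em to EPN2, while the row of KRT8 is darkest in EPN2.

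By edgeR, none of the 6 simple keratins was called between lines, and KRT80 alone was called between media, with the line block. DESeq2 also called KRT20 between media, and its likelihood ratio test called KRT80 (adjusted p = 1.57e-06) and KRT23 (0.00283) between lines. KRT8 (ENSSSCG00000000252), the type II keratin of simple epithelia, read 3463, 2732, 3055 and 2269 CPM in Em, EPN1, LPN and EPN2 in complete medium and 4903, 3605, 1458 and 425 CPM in differentiation medium. KRT7, the duct keratin, read 1953, 1872, 2190.1 and 1933 CPM in complete and 2835, 2049, 1217 and 522 CPM in differentiation medium. Both were higher with differentiation medium in Em and EPN1 and lower in LPN and EPN2. KRT18, the type I partner of KRT8, read 948, 423, 348 and 375 CPM in complete and 1397, 830.4, 247 and 45.2 CPM in differentiation medium, and so followed the same directions. The media did not differ for any of them by more than the spread between libraries (log2 fold changes of -0.15 for KRT8, -0.26 for KRT7 and 0.27 for KRT18, adjusted p = 0.903, 0.736 and 0.87 by edgeR), and with 1 library per line and medium the difference between lines in their response was not tested.

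**Figure D3:**
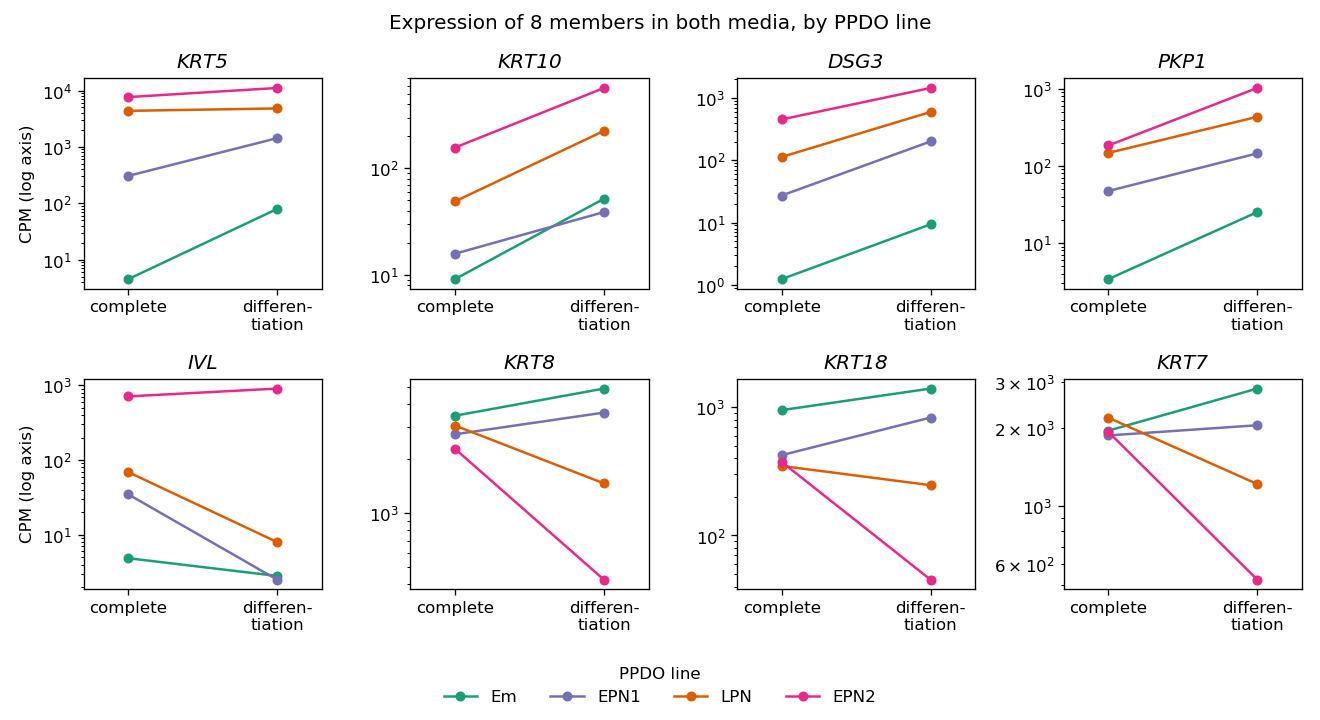
Expression of 8 members in CPM on a log axis, with a line joining the complete and the differentiation library of each PPDO line. KRT10, DSG3 and PKP1 slope upward in each line, whereas KRT7, KRT8 and KRT18 slope upward in Em and EPN1 and downward in LPN and EPN2.

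The other 3 simple keratins went their own ways. KRT80, a type II keratin found at the cell edge near desmosomes, read 75.0, 46.7, 57.1 and 98.6 CPM in complete and 186, 133, 124 and 350.1 CPM in differentiation medium. The higher level held in every line, by 2.16-fold to 3.55-fold, and the medium groups did not overlap (log2 fold change 1.44 ± 0.14 (SE), adjusted p = 0.00959 with the line block, against 0.0547 without it). KRT20, a keratin of intestinal epithelium, umbrella cells and Merkel cells, read 0.0866, 0.288, 0 and 0.678 CPM in complete medium and 49.0, 13.4, 0.125 and 0.187 CPM in differentiation medium. It thus exceeded 1 CPM in Em and EPN1 in differentiation medium alone, with 30 counts at most in each other library (adjusted p = 0.117 by edgeR and 0.0107 by DESeq2 without the block, 0.186 and 0.00887 with it). KRT23, a type I keratin, was lowest in Em (0.195 CPM, and 7.38 CPM with differentiation medium) and highest in EPN2 (555 and 530.0 CPM), and its adjusted p was 0.101 between lines and 0.956 between media.

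Neither basal keratin was called by edgeR, although KRT5 spanned a wide range between lines. KRT5 (ENSSSCG00000000248), the type II keratin of basal cells, read 4.5 CPM in Em, 306 CPM in EPN1, 4357 CPM in LPN and 7648 CPM in EPN2 in complete medium and 79.4, 1429.9, 4808 and 11099 CPM in differentiation medium. EPN2 was 1698-fold above Em in complete medium and 140-fold in differentiation medium, since KRT5 was 17.6-fold higher with differentiation medium in Em but 1.45-fold higher in EPN2. Its adjusted p by edgeR was 0.056 between lines and 0.157 between media with the line block, so neither passed the threshold, while DESeq2 gave 0.00322 between lines and 0.228 between media with the block. KRT15, a type I keratin of basal cells in skin and oesophagus, had its highest level in LPN and not in EPN2, at 61.3, 74.3, 1193 and 183 CPM in complete and 56.2, 854, 2730.2 and 1174 CPM in differentiation medium. It was higher with differentiation medium in EPN1, LPN and EPN2 by 2.29-fold to 11.5-fold and about level in Em (0.917-fold), with an adjusted p with the line block of 0.101 by edgeR and 0.00444 by DESeq2. Between lines its adjusted p was 0.0978 by edgeR and 1.14e-05 by DESeq2.

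Among the 10 suprabasal and mucosal keratins, 5 passed the filter and the epidermal pair KRT1 and KRT10 was called in both comparisons. KRT10, the type I partner of KRT1, read 9.12, 15.8, 49.0 and 157 CPM in complete medium and 51.9, 38.9, 225 and 569.8 CPM in differentiation medium. It was higher with differentiation medium in 4 of 4 lines, by 2.46-fold to 5.69-fold (log2 fold change 1.97 ± 0.22 (SE), adjusted p = 0.0112 with the line block, 0.297 without it), and EPN2 lay 17.2-fold and 11-fold above Em in the 2 media (adjusted p = 0.0141 between lines). KRT1 was listed at 0 in Em and EPN1 in complete medium, and read 0.244 CPM in LPN and 15.2 CPM in EPN2. In differentiation medium KRT1 read 0.186, 0.588, 2.23 and 56.2 CPM, so that it was well above the floor in EPN2 alone in complete medium (adjusted p = 0.0323 between media with the line block, 0.622 without it, and 0.0194 between lines).

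KRT4, a keratin of mucosal suprabasal cells, read 83.7, 65.6, 119 and 971 CPM in complete and 104, 812, 549 and 513 CPM in differentiation medium. EPN2 stood above the rest in complete medium, and EPN1, LPN and EPN2 were all above Em in differentiation medium. It was 12.4-fold higher with differentiation medium in EPN1 and 0.529-fold as high in EPN2, and was called in neither comparison. KRT78, a type II keratin, was called between lines (adjusted p = 0.0103), with 0.0217, 0.264, 0.585 and 12.2 CPM in complete and 0.0412, 0.136, 0.355 and 6.21 CPM in differentiation medium. It was lower in differentiation medium in the 3 lines above the counting floor, at 0.51-fold to 0.607-fold, and its adjusted p between media with the line block was 0.166. KRT77 ranged from 0.0866 to 5.24 CPM. KRT2, KRT3, KRT12, KRT24 and KRT79 did not pass the filter, and the highest of their levels was 1.49 CPM, for KRT2 in EPN2 in differentiation medium.

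Hair and inner root sheath keratins were at the edge of detection. Of 19 such genes, 10 never exceeded 3 counts in a library, and their counts summed to 27 to 161 in a library. The 1 that passed the filter was ENSSSCG00000043259, 1 of 2 genes with the symbol KRT27, with 0.498, 1.35, 0.828 and 0.497 CPM in complete and 0.804, 1.67, 0.876 and 0.887 CPM in differentiation medium. It was called in neither comparison. The second KRT27 gene (ENSSSCG00000017462) read 1.45 and 1.66 CPM in EPN2 and at most 0.103 CPM in the other lines, and KRT32 reached 1.29 CPM in LPN in differentiation medium.

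Of the desmosomal cadherins, DSG3, DSG1 and DSC1 were higher in differentiation medium with the line block, and DSG3 and DSG1 also differed between lines. DSG3 (ENSSSCG00000027160), the desmoglein of deep layers of stratified epithelia, read 1.23 CPM in Em, 27.1 CPM in EPN1, 113 CPM in LPN and 453 CPM in EPN2 in complete medium, and 9.34, 201, 598 and 1452 CPM in differentiation medium. It rose in 4 of 4 lines, by 7.57-fold in Em, 7.42-fold in EPN1, 5.29-fold in LPN and 3.21-fold in EPN2 (log2 fold change 2.46 ± 0.25 (SE), adjusted p = 0.00975 with the line block, 0.478 without it). EPN2 lay 367-fold above Em in complete and 156-fold above it in differentiation medium (adjusted p = 0.00873 between lines). DSG1, the desmoglein of the upper epidermis, read 0.0433, 0.721, 8.45 and 83.7 CPM in complete and 0.825, 2.85, 45.2 and 165 CPM in differentiation medium, in the same order of lines as DSG3 (adjusted p = 0.0281 between media with the line block, 0.725 without it, and 0.0139 between lines).

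DSC1, the desmocollin of the upper epidermis, was low throughout, at 0.0866, 0.697, 0.853 and 3.1 CPM in complete and 3.83, 2.65, 7.68 and 18.7 CPM in differentiation medium. It rose in 4 of 4 lines (log2 fold change 3.08 ± 0.57 (SE), adjusted p = 0.0237 with the line block, 0.131 without it), and its adjusted p between lines was 0.127. DSC2 and DSG2 are the cadherins that simple epithelia use, and edgeR called neither. DSC2 read 342, 555, 635 and 814 CPM in complete and 409, 676, 1190.1 and 1866 CPM in differentiation medium, higher in 4 of 4 lines, with an adjusted p with the line block of 0.0702 by edgeR and 0.0106 by DESeq2. DSG2 ranged from 178 to 309 CPM in complete and from 144 to 297 CPM in differentiation medium, lowest in EPN2 and highest in Em in both, and its adjusted p was 0.307 between media with the line block and 0.0614 between lines. DSG4, a desmoglein of hair, did not pass the filter.

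In the desmosomal plaque, PKP1 and JUP were higher in differentiation medium with the line block and PKP1 also differed between lines. PKP1 (ENSSSCG00000030694), the plakophilin of stratified epithelia, read 3.4, 47.3, 148 and 184 CPM in complete and 25.2, 146, 434 and 1029 CPM in differentiation medium. It rose by 2.94-fold to 7.41-fold in the 4 lines (log2 fold change 2.13 ± 0.27 (SE), adjusted p = 0.0131 with the line block, 0.32 without it), and EPN2 lay 54.2-fold and 40.8-fold above Em in the 2 media (adjusted p = 0.0166 between lines). JUP, plakoglobin, read 557, 637, 739.8 and 756 CPM in complete and 842, 942, 1228 and 2065 CPM in differentiation medium, with every differentiation library above every complete one (log2 fold change 0.83 ± 0.19 (SE), adjusted p = 0.0368 with the line block, 0.0962 without it).

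DSP, desmoplakin, read 1059, 1186, 1711 and 2049 CPM in complete and 1161, 1560.5, 2471 and 3970.2 CPM in differentiation medium. Each line was higher in differentiation medium, by 1.1-fold to 1.94-fold, but the groups overlapped and the adjusted p with the line block was 0.0901 by edgeR and 0.0161 by DESeq2. The other 3 plakophilins were called in neither comparison by edgeR, while DESeq2's likelihood ratio test called PKP2 between lines (adjusted p = 0.000114). PKP2, the plakophilin of simple epithelia and heart, ranged from 198 to 434 CPM, PKP3 from 100.1 to 223 CPM and PKP4 from 127 to 197 CPM over the 8 libraries. PKP2 was highest in Em in both media and PKP1 lowest there.

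In the cornified envelope class, EVPL and KRTDAP rose with the line block, and IVL and KRTDAP differed between lines. EVPL, envoplakin, read 63.9, 131, 144 and 284 CPM in complete and 322, 391, 381 and 385 CPM in differentiation medium, so the lines lay closer together in differentiation medium. The rise was 5.05-fold in Em and 1.36-fold in EPN2 (log2 fold change 1.44 ± 0.31 (SE), adjusted p = 0.0333 with the line block, 0.093 without it). KRTDAP, keratinocyte differentiation-associated protein, was listed at 0 in Em in complete medium and read 1.99, 8.67 and 229.8 CPM in EPN1, LPN and EPN2, and 2.35, 22.7, 103 and 466 CPM in differentiation medium. In Em it was at least 36.2-fold higher in differentiation medium, and EPN2 was at least 3536-fold higher than Em in complete medium and 198-fold higher in differentiation medium (adjusted p = 0.041 between media with the line block, 0.716 without it, and 0.0349 between lines).

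IVL, involucrin, set EPN2 apart from the other lines in both media. It read 4.87, 34.8, 69.0 and 710.4 CPM in complete medium and 2.82, 2.51, 7.99 and 905 CPM in differentiation medium. The level was lower with differentiation medium in Em, EPN1 and LPN, at 0.58-fold, 0.0722-fold and 0.116-fold, and higher in EPN2, at 1.27-fold, while KRTDAP was higher in all 4. The adjusted p of IVL by edgeR was 0.0426 between lines and 0.157 between media with the line block, whereas DESeq2 with the block called it lower in differentiation medium (log2 fold change -1.83, adjusted p = 0.0168), and the sign of its log2 fold change differed between the fits (in edgeR 0.16 without and -1.84 with the block). SBSN, suprabasin, read 0.065, 47.5, 68.3 and 942 CPM in complete and 12.8, 88.8, 405 and 1627 CPM in differentiation medium, in the same order of lines as KRTDAP, with an adjusted p of 0.0839 between lines. PPL, periplakin, the partner of envoplakin, read 293.0, 299, 293 and 449 CPM in complete and 330.1, 405, 441 and 865 CPM in differentiation medium, higher in 4 of 4 lines, with an adjusted p with the line block of 0.061 by edgeR and 0.00731 by DESeq2.

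**Figure D4:**
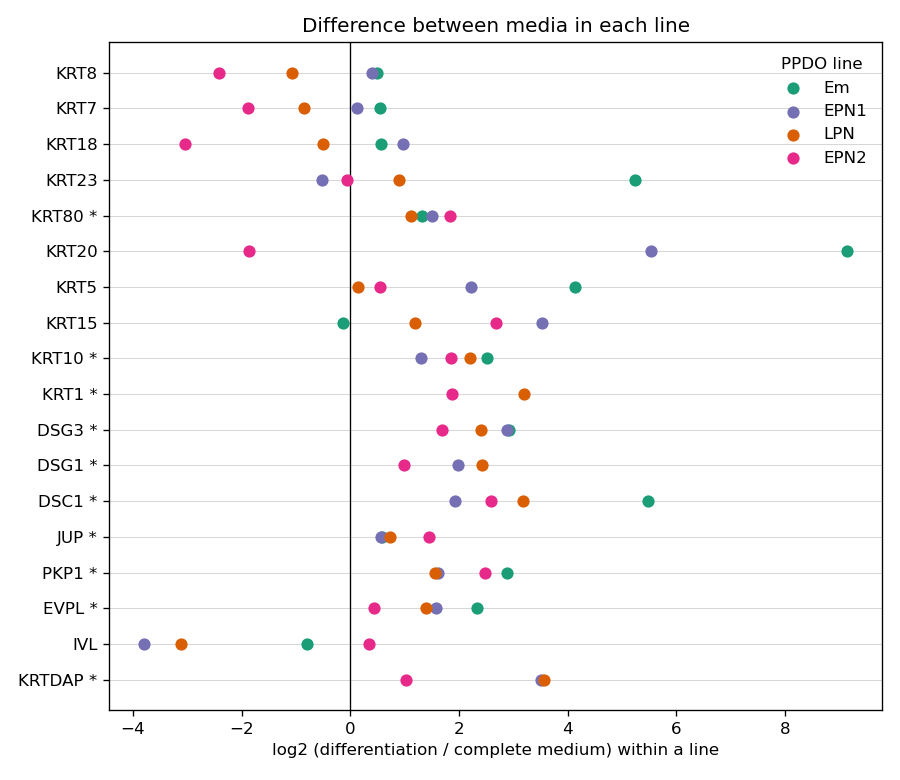
Difference between media within each line as log2 of the differentiation over the complete level, for 18 members, with 1 point for each line and an asterisk where edgeR with the line block gave an adjusted p under 0.05. Points are left out where either library held 3 counts or fewer. The points of KRT80, KRT10, DSG3, JUP, PKP1 and EVPL all lie above 0, while those of KRT7, KRT8, KRT18 and IVL lie on both sides of it.

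No transglutaminase was called by edgeR in either comparison. TGM5, an epidermal transglutaminase, read 0.606, 0.793, 1.24 and 4.77 CPM in complete and 0.598, 5.56, 23.4 and 50.5 CPM in differentiation medium. EPN1, LPN and EPN2 were 7.02-fold to 18.8-fold higher in differentiation medium and Em was level at 0.986-fold (log2 fold change 2.79 ± 0.74 (SE), adjusted p = 0.052 with the line block, and by DESeq2 0.0093 without and 0.000134 with it). TGM1, the membrane-bound keratinocyte enzyme, read 119, 66.0, 65.8 and 135 CPM in complete and 25.0, 38, 58.6 and 148 CPM in differentiation medium, with an adjusted p of 0.233 with the line block. In Em it was 0.209-fold as high in differentiation medium and in EPN2 1.1-fold as high. TGM2, the tissue transglutaminase, read 38.2, 118, 168 and 49.7 CPM in complete and 47.6, 163, 83.0 and 133 CPM in differentiation medium with no shared order of lines. TGM6 and TGM7 did not pass the filter. TGM3, the epidermal enzyme outside the 59 genes, ranged from 0 to 4.11 CPM with an adjusted p of 0.571 with the line block.

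Further genes came from a list of 56 symbols. It held regulators and parts of stratified epithelium, and more general genes such as CDH1, which is also among the duct markers below. The list was written with earlier results of these data known, so its shares describe the list and give no separate support. Of the 56 symbols, 46 were found and 43 tested. Without a line term 3 were higher in differentiation medium and 3 lower, where 6.97% of all genes were called. With the line block 13 were higher and 5 lower, where 9.48% of all genes were called higher and 19.9% in either direction. The 3 that fell in both fits, COL17A1, ITGB4 and ITGA6, encode parts of the hemidesmosome, which anchors basal cells to the matrix. The other 2 hemidesmosome genes of the list did not fall: DST, which encodes the epithelial form of dystonin among others, was higher in 4 of 4 lines (log2 fold change 0.42, adjusted p = 0.0369 with the line block), and PLEC, plectin, was higher in 2 lines and lower in 2 (-0.17, adjusted p = 0.74 without the block). ITGB4 read 496, 1243, 1581 and 1401 CPM in complete and 258, 336, 426 and 279.7 CPM in differentiation medium. Its log2 fold change was -1.86 ± 0.36 (SE, adjusted p = 0.0283 without the block). ITGA6 fell by 1.80 and COL17A1 by 1.56 on the log2 scale (adjusted p = 0.0377 and 0.0495 without the block). The other 2 that fell with the block were CDH3, P-cadherin (adjusted p = 0.0214), and KRTCAP2 (0.0352).

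The 3 that rose in both fits were CTNNA1, alpha-catenin of adherens junctions (log2 fold change 0.66 ± 0.15 (SE), adjusted p = 0.0393 without the block), and CRNN and CALML5, proteins of differentiating squamous cells that reached at most 3.01 and 1.92 CPM in a library. CRNN and CALML5 held 3 counts or fewer in every complete library and so passed the expression filter only through differentiation medium, where they had to be higher. With the line block, the kallikrein peptidases KLK10, KLK13 and KLK14 and their inhibitor SPINK5 also rose, although KLK13 in Em held only 5 and 6 counts. KLK5, KLK7 and KLK8 were not called between media (adjusted p = 0.605, 0.32 and 0.466 with the block). They were lower with differentiation medium in Em and EPN1 and higher in LPN and EPN2. RHCG, an ammonium transporter of squamous epithelium, also rose with the block. RHCG read 0.065, 8.39, 55.7 and 53.1 CPM in complete and 4.52, 100.2, 714 and 889.5 CPM in differentiation medium. RHCG had a log2 fold change of 4.02 ± 0.34 (SE), with an adjusted p of 0.00856 with the line block and 0.212 without it. GRHL1, NOTCH1, DST, CTNND1 and CDH1 completed the set that rose with the block. Between lines, 11 of the 43 (25.6%, against 5.14% of all genes) were called: GRHL1, GRHL3, NOTCH1, CDSN, SPINK5, KLK7, KLK10, KLK13, KLK14, RHCG and DST. The order with Em lowest and EPN2 highest in both media held for 16 of the 43, where 5.33% of all genes had it. Both the list and this order were chosen with results of these data known, so these shares are description only. TP63, the transcription factor of basal cells, read 29.3, 72.0, 218 and 126 CPM in complete and 7.32, 83.8, 294 and 309 CPM in differentiation medium, with an adjusted p of 0.111 between lines.

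Markers of pancreatic and other cell types were read in the same libraries. All 9 duct markers were present, and their summed level ran from 5242 CPM in Em through 3427 and 2649 CPM in EPN1 and LPN to 2426 CPM in EPN2 in complete medium, and from 6993 through 5077 and 4384 to 3120.3 CPM in differentiation medium. The order of the lines by this sum was the reverse of their order by stratified keratins, but CDH1 and SPP1 carry much of the sum and single markers differed. EPCAM, ANXA4 and ONECUT1 had that order in both media, as in ONECUT1 at 27.9, 1.78, 0.365 and 0.0678 CPM in complete medium. SOX9 read 86.2, 47.6, 34.4 and 86.5 CPM there, level in Em and EPN2, and CFTR read 338, 30.6, 7.67 and 85.1 CPM. PDX1 was highest in EPN1 in complete medium, and SPP1, osteopontin, was highest in LPN in differentiation medium at 1553 CPM. Among 9 of 14 acinar markers found, CPB1 and PNLIP were at 0 in every library, and the sum of 124 to 319.5 CPM was nearly all CTRC. Summed stromal markers, mostly VIM, ran from 22.4 to 73.0 CPM in complete and from 2.45 to 51.1 CPM in differentiation medium and were lowest in EPN2 in both. Summed endothelial markers ran from 15.7 to 44.0 CPM, immune markers from 14.5 to 100.2 CPM and endocrine markers from 0.876 to 23.8 CPM. Of the melanocyte markers, TYR was at 0 in every library and MLANA had a single count, in Em in complete medium. PMEL read 1.13, 1.66, 1.44 and 1.15 CPM in complete and 0.35, 0.113, 0.313 and 0.187 CPM in differentiation medium. It was lower in each line, with an adjusted p by edgeR of 0.0213 without and 0.0225 with the line block. The part of duct or stromal cell content in the differences between lines was not tested.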

How the data were processed

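The authors made poly(A) libraries of 4 PPDO lines in 2 media (8 libraries), ran salmon through nf-core on a pig genome with their own annotation, and deposited the estimated counts. The submitters' processing notes name Sscrofa11.1. Whether the estimated counts were scaled by gene length could not be read from the values. Rows of a gene (suffixes -iso and -ext) were summed and rounded, and 8 reporter rows (0.00142% of counts) were left out. Media came from the sample titles and lines from the table header, since the titles number the replicates without naming lines, and the labels' treatment field is the same in all 8 samples. Totals were 40553593 to 47910657 counts.

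Fits were made with edgeR 4.0.16 in R 4.3.3 (TMM, default expression filter, quasi-likelihood test, Benjamini-Hochberg over 14475 genes, threshold 0.05) and DESeq2 1.42.0, and tested on simulated data. There DESeq2 exceeded its nominal rate of false calls. It was allowed a higher rate than edgeR, which was itself allowed more than the nominal rate. Both libraries of a line are the same organoid culture, so the line pairs the libraries. After removal of medium means, libraries of a line correlated at 0.401 to 0.658, and those of different lines at no more than 0.265. Alternatives were the line block, DESeq2, other scaling factors, no filter, no -ext rows and left-out libraries or lines. Without a line term, the p-values between media measure the spread between single cultures of 4 lines. With the line block, and in the test of lines, they measure what line and medium together leave over. That leftover has 3 residual degrees of freedom. Members, classes and lists were chosen with earlier results of these data known. Values in all libraries are given for members called between media, the 2 of each class with the highest level or largest fold change, and the 10 with the smallest p-values between lines. Positions are from RefSeq. Figures were drawn with matplotlib 3.10.9.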

Additional observations from a re-analysis of the deposited data

Results flagged for a closer look

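Libraries that stood far from the other 3 of their medium were looked for in 66 groups of 4 libraries (33 members in 2 media) by Dixon's ratio, which is the gap to the nearest library over the whole range of the group. It passed its limit in 16 groups. Chance alone passes that limit in about 5% of groups of normally distributed values, and that rate need not hold here, because the ratio was taken on CPM, which spans orders of magnitude between lines for many members. In 12 of the 16 the library was EPN2, above the others. In complete medium these were KRT4 (ratio 0.941, 971 CPM against 65.6 to 119 CPM in the other lines), KRT1 (0.984), KRT78 (0.954), DSG1 (0.899), PPL (0.963), SBSN (0.928), IVL (0.909), KRTDAP (0.962) and TGM5 (0.847). In differentiation medium EPN2 stood apart for KRT1 (0.963), KRT78 (0.949) and IVL (0.994, 905 CPM against 2.51 to 7.99 CPM). The other 4 were KRT18 in complete medium, high in Em (0.876), KRT15 in complete medium, high in LPN (0.893), KRT27 in differentiation medium, high in EPN1 (0.905), and EVPL in differentiation medium, low in Em (0.856). The genes share their libraries, so the 16 groups are not independent of each other.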

How the results depend on the processing

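Between media, the test without a line term called 1009 genes and 0 members. With the line as a replicate block it called 2884 genes and 10 members, DESeq2 called 2884 genes and 6 members without and 5393 genes and 17 members with the block, and edgeR without an expression filter called 506 genes. Upper-quartile factors gave 1 member. With both libraries of Em, EPN1, LPN or EPN2 left out, the blocked fit called 1730, 8, 22 and 2989 genes in all, and 7, 0, 0 and 11 members. The fit without a line term, chosen after seeing the data, then called 149, 0, 5 and 1207 genes, and 2 members without EPN2. Leaving out single libraries gave 70 (without EPN1 in differentiation medium) to 1199 genes and 0 to 2 members. Between lines, 744 genes and 8 members were called, 1163 and 13 without the filter, 4565 and 21 by DESeq2's likelihood ratio test, and 104 (without Em) to 379 genes and 3 to 6 members without a line. A fit without a line has 2 residual degrees of freedom in place of 3.

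The sign of the log2 fold change between media turned in at least 1 of 23 alternative fits for 14 of the 33 members, none of which was called without a line term and 3 of which (KRT1, DSG1 and KRTDAP) were called with the block. For KRT8 it was 0.08 without both libraries of LPN and 0.11 without those of EPN2, for KRT7 0.02 without EPN2, for KRT4 -0.01 without EPN1, and for TGM2 -0.14 without EPN2, or -0.07 with the block. For IVL it was -1.84 with the block in edgeR and -1.83 in DESeq2, and in the blocked fit -2.25, -1.14, -1.30 and -2.62 without Em, EPN1, LPN and EPN2, and -3.02 with no line term and without EPN2. With no line term, leaving out single libraries gave ranges of -0.65 to 0.21 for KRT8, -0.65 to 0.04 for KRT7, -0.55 to 1.49 for KRT5, -1.95 to 7.5 for KRT1, -4.18 to 2.53 for KRT78, -0.51 to 4.12 for DSG1, -0.65 to 3.79 for SBSN, -5.53 to 2.67 for IVL, -0.49 to 5.39 for KRTDAP and -0.08 to 0.63 for TGM2, and each of these signs turned without 1 of the EPN2 libraries. The other 3 members were KRT18 (-0.93 to 0.74 over all fits), KRT23 (-0.50 to 1.51) and DSG2 (-0.32 to 0.01). Leaving out a single library of a line other than EPN2 also turned the sign for KRT8, IVL, TGM2, KRT18, KRT23 and DSG2. The cause of these turns was not tested. The stratified share of keratin counts ran from 1.49% to 86.7% over the libraries without KRT15 and from 2.43% to 93.1% against KRT7, KRT8 and KRT18 alone. A share scaled by gene length was not run.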
